A study of Mus musculus with 22 samples.

Results

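Embryonic stem cells (ESCs) in which the germ cell gene Dnd was forced were profiled on 1 array, which was set against 1 array of the parental line EBRTcH3. These are 2 of the 22 arrays of a study of mouse primordial germ cells (PGCs), their culture into embryonic germ cells, and forced germ cell genes in ESCs. Another 6 arrays held EBRTcH3 cells with forced Prdm14, Vasa, Nanos2, Nanos3, Blimp-1 or GFP alone, and the range over those 6 shows where the Dnd array stood apart. All 8 arrays came from mouse ESCs grown in Knockout DMEM with KSR and LIF, and each group had 1 array.

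EBRTcH3 is an ESC line, derived from a male line, that carries a tetracycline-regulated exchange cassette. The labels describe the cells of the Dnd array and of the other 6 construct arrays as GFP positive, whereas the parental array is described as ESCs with no sort named. Construct, GFP selection and the parental line's own culture therefore cannot be told apart in Dnd minus parental. The GFP and Blimp-1 titles name the EF1a promoter and day 2. Promoter, induction time and number of clones for the Dnd cells are not given in the sources used here. The title of the array says Dnd, while its source name spells the forced gene End.

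Dnd1, the mouse gene meant by Dnd, encodes an RNA-binding protein of germ cells. In PGCs its loss leads to germ cell death or, on some backgrounds, to testicular tumours. The protein binds messenger RNAs, has been reported both to shield transcripts from microRNAs and to bring them to the CCR4-NOT deadenylase, and partners Nanos2 in male germ cells.

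Values are levels, the log2 of a probe's intensity over the 75th percentile of its array, so that 0 marks that percentile. Fold changes compare single arrays and have no test. A probe the scanner did not call well above background was set to the lowest level so called on its array, and such differences are given as "at least". On the Dnd array 58.7% of probes were well above background, against 49.1% on the parental array, and the 75th percentiles lay at intensities of 288 and 195. The Dnd array shared its slide with Nanos2 and Nanos3 and the parental array was on another slide with Prdm14 and Vasa, so slide and construct cannot be told apart either. The GFP and Blimp-1 arrays shared a further slide, so the same holds where the GFP array serves as control. Of the 8 arrays, parental and Nanos3 stood farthest from the rest: over all genes their levels correlated at 0.943, the lowest of any pair, while the Dnd array's correlations with the other 7 ran from 0.962 to 0.981.

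Dnd1 itself was at a level of 1.43 on the Dnd array and 0.28 on the parental array, 2.23-fold higher. On the other constructs it ran from 0.24 with Vasa to 1.92 with Blimp-1, with Prdm14 at 0.30, Nanos2 at 0.86, GFP at 0.90 and Nanos3 at 1.20. The Dnd array was therefore inside the range of arrays on which Dnd1 was not the forced gene. PGCs from embryos at E11.5 had the highest level of the 22 arrays, 4.04, and the Dnd array ranked 6. A single probe reads Dnd1, and whether the construct holds its target was not tested. For scale, Nanos3 stood at 2.66 on its own array and -2.48 on the parental array, 35.1-fold higher, whereas Ddx4 on the Vasa array (0.01) and Prdm1 on the Blimp-1 array (-1.38) were not above the parental levels of 0.26 and 0.48.

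**Figure D1:**
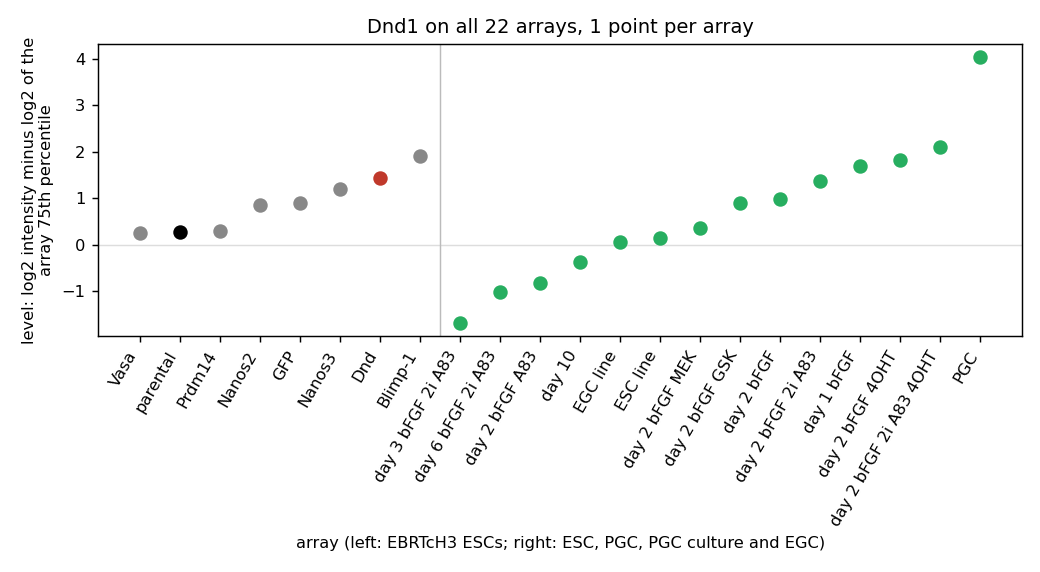
Level of Dnd1 (log2 of intensity over the 75th percentile of the array) on each of the 22 arrays, 1 point per array, with the 8 EBRTcH3 arrays on the left (Dnd red, parental black, other constructs grey) and the other 14 on the right in green. The Dnd array, at 1.43, is above 6 of the other EBRTcH3 arrays and below Blimp-1 at 1.92, and uncultured PGCs are highest at 4.04.

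Across 16513 genes measurable on at least 1 of the 2 arrays, 1626 (9.85%) were at least 2-fold higher on the Dnd array than on the parental array and 2695 (16.3%) at least 2-fold lower. The median of all log2 differences was -0.16 as measured and -0.09 with dim sides at the floor. List medians below are of measured values. With the GFP array as control, whose cells were GFP positive too, 1025 genes were at least 2-fold higher and 1700 lower of 17219, and with normexp background correction 847 and 1126 against parental. Of the 3976 genes at least 2-fold different that could also be placed in the range, 3398 (85.5%) lay inside the range of the other 6 construct arrays. Only 127 of 16183 genes (0.785%) lay at least 2-fold outside it, 110 above (0.68%) and 17 below (0.105%). At least 2-fold from parental and at least 2-fold outside the range in the same direction were 114 genes (0.705%), 103 above (0.637%) and 11 below (0.068%). The parental array lay outside the range of the 7 constructs more often, above it for 385 and below it for 387 of 14735 genes.

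The 11 low genes were the Y-linked Uba1y and Ddx3y, the germline genes Mael and Fmr1nb, and Gask1b, Upb1, Fetub, Vamp7, Rhbg, Ecrg4 and Mgmt. On the Dnd array, 10 of the 11 were still well above background, the exception being Ddx3y. None of their spots lay within 200 micrometres of a spot above the range.

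Mael encodes Maelstrom, a protein of germ granules needed for piRNA silencing of transposons. Its level was -0.23 on the Dnd array and 1.77 on the parental array, 3.98-fold lower. The other constructs ran from 0.89 (Nanos3) through a median of 1.44 to 2.03 (Nanos2), so the Dnd array was 2.17-fold below the lowest of them. Mov10l1, an RNA helicase of the same piRNA pathway, was at -4.25 on the Dnd array and from -3.64 (Vasa) to -1.77 (Prdm14) on the others, 1.52-fold below the lowest. It was not well above background on the parental array. Both genes lay at the bottom of the constructs on the Dnd array, and their promoters are shown. Tex19.1, another later germline gene below all 6 other constructs, by 0.21 on the log2 scale, is not shown. CACGTG is the E-box bound by Mga and Max, partners in a Polycomb complex known to silence germline genes. The 250 bases before each RefSeq start (GRCm38.p6) follow 5′ to 3′, with CACGTG in capitals, for Mael at chr1:166238745-166238994 on the minus strand and Mov10l1 at chr15:88982744-88982993 on the plus strand.
Mael: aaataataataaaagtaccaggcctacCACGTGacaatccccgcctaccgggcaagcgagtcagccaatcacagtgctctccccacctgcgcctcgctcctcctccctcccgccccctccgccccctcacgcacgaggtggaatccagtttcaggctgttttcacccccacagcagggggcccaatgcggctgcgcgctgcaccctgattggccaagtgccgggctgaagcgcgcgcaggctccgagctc
Mov10l1: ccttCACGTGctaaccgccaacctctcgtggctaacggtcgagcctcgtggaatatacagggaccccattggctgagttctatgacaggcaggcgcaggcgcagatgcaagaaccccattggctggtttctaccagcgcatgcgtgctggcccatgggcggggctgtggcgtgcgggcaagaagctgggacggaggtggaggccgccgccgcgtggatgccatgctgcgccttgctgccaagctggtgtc
Each holds 1 match to this palindrome, which reads the same on both strands. In windows from 250 bases before to 50 after the start, 10 of the 21 later germline genes in the promoter table (47.6%) held a match, against 2187 of all 27025 genes (8.09%) and 2349 of 32851 windows (7.15%). Of the 11 low genes, 9 were in the table and 1 of them, Mael, held a match (11.1%). The germline genes with a match include Ddx4 and Sycp3, which were inside the range, at 0.55 and 1.25. They also include Pld6, which was above the range by 0.18 on the log2 scale. Tex19.1, which was below the range, held no match. A match describes the sequence only.

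Of the 25 later germline genes, which cover germ granules, piRNAs and meiosis, 19 could be measured against parental. None was at least 2-fold higher (9.85% of all genes) and 3 were at least 2-fold lower (16.3% of all genes): Mael, Sycp2 and Tex19.1. Sycp2, a meiotic chromosome axis protein, was at -2.28 on the parental array and not well above background on the Dnd array, at least 6.34-fold lower, but parental was the only 1 of the 8 arrays on which it was well above background. Tex19.1, which restrains retrotransposons, was at 4.63 against 5.63 on the parental array, 2.01-fold lower, and below the lowest other construct, Nanos3 at 4.83, by 0.21 on the log2 scale. Rec8, a meiotic cohesin subunit, went the other way, at 1.27 against 0.71 on the parental array. The other constructs ran from 0.17 (GFP) to 0.92 (Nanos2), so by this probe the Dnd array was the highest of the 8. A second Rec8 probe was also above the other constructs on the Dnd array, at -0.65, but below the parental array, at -0.45. Pld6, a piRNA pathway enzyme, was above the other constructs by 0.18 on the log2 scale but below the parental array, at -0.04 against 0.92. In all, 2 members were above the range and 3 below it by any amount, against 8.98% and 4.93% of all genes. The list's median was -0.16 as measured, as for all genes, and 0.0 against -0.09 with dim sides at the floor.

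Syce1, a component of the synaptonemal complex that was picked after its values were seen, was also low: 0.28 on the Dnd array, 1.44 on the parental array and from 1.21 (Vasa) to 2.57 (Prdm14) on the other constructs. Fmr1nb, an X-linked gene next to Fmr1 with expression mainly in testis (probe at mm9 chrX:66056782-66056841), was at -0.87 against 2.82 on the parental array, 12.8-fold lower. On 5 of the other constructs Fmr1nb ran from 2.09 to 2.98, and on the Vasa array it was 0.64. The Dnd and Vasa arrays were thus the lowest for Fmr1nb, the Dnd array by a further 2.84-fold.

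Of 16 Y-linked genes with a probe, 5 were well above background on all 6 other constructs. The Dnd and Vasa arrays were the lowest pair for 4 Y-linked genes, which were examined after Uba1y and Ddx3y had been seen among the low genes. Ddx3y, a Y-linked copy of a DEAD-box RNA helicase, was at 1.15 on the parental array and from 0.77 to 1.66 on 5 constructs. It was at -3.13 on the Vasa array and not well above background on the Dnd array, at least 68.4-fold below parental and at least 3.51-fold below Vasa. A second Ddx3y probe was not well above background on either array and ran from -1.73 to -0.47 on the other 6. Uba1y, the Y copy of a ubiquitin-activating enzyme, was at -3.23 on the Dnd array and 1.26 on the parental array, 22.5-fold lower. On the other constructs Uba1y was -1.12 (Vasa), -1.02 (Nanos3), -0.03 (Nanos2), 0.26 (Blimp-1), 0.33 (GFP) and 0.52 (Prdm14), all above the Dnd array by at least 4.33-fold.

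Eif2s3y, the Y copy of a translation initiation factor subunit needed in spermatogonia, was at 0.90 on the Dnd array and 0.85 on the Vasa array. It was at 3.52 on the parental array and from 2.07 to 2.64 on the other 5 constructs. Uty, a Y-linked relative of a histone demethylase, was at -4.25 on the Dnd array and not well above background on the Vasa array, against -0.99 on the parental array and -2.74 to -2.34 on the other 5. For these 2 genes the Dnd array was thus inside the range, because the Vasa array was equally low or lower.

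The 4 low probes lie together on the Y chromosome of mm9, from Uba1y at chrY:179989-180048 through Eif2s3y at chrY:364900-364959 and Uty at chrY:433804-433863 to Ddx3y at chrY:598215-598274. Zfy1 and Zfy2, zinc finger genes on either side of them at chrY:61848-61906 and chrY:1362254-1362313, were inside the range, at -2.22 and -3.10 on the Dnd array and -1.21 and -2.29 on the parental array. They ran from -2.84 to -0.94 and from -3.76 to -1.57 on the other constructs. Zfy1 and Zfy2 are near-identical to each other and have relatives elsewhere, and their probes were not checked for shared matches. Kdm5d and Usp9y, which also have probes in this stretch, were not well above background on the Dnd or the parental array. Sry, the sex-determining gene, was well above background on the Dnd array alone, at -3.34, with 3 above-range spots near it. The X-linked copies showed no such gap: Uba1 was at 4.15 on the Dnd array and 3.55 on the parental array, Eif2s3x at 3.51 and 3.67, Kdm6a at -0.44 and -0.72, and Ddx3x at 4.16 and 4.42. In bulk cells, fewer cells with a transcript and less of it per cell cannot be told apart.

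**Figure D2:**
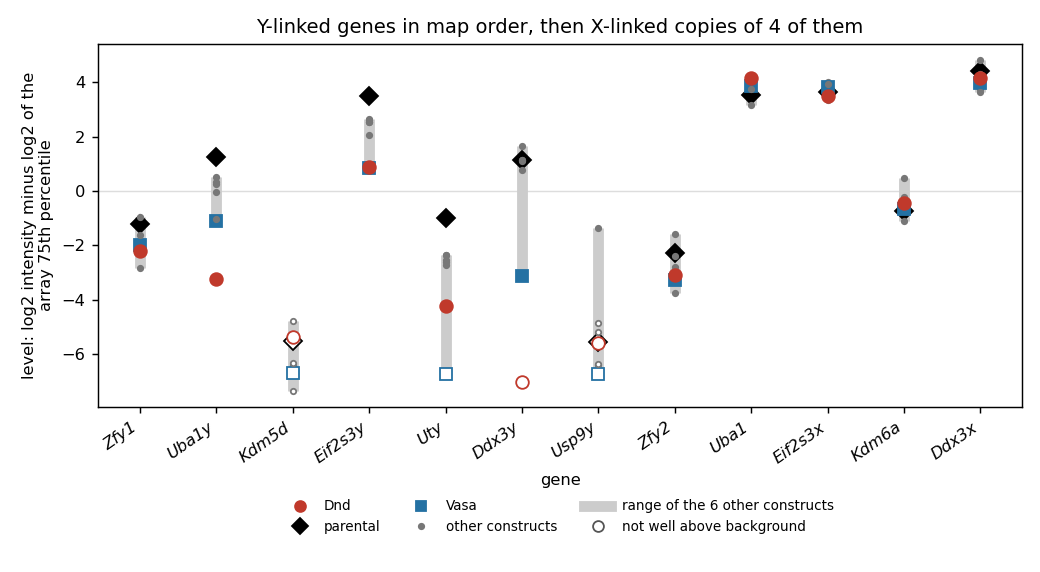
Levels of 8 Y-linked genes in their order along the chromosome and of the X-linked copies of 4 of them on the 8 EBRTcH3 arrays (Dnd red circles, parental black diamonds, Vasa blue squares, other constructs grey dots, open marks not well above background), with grey bars for the range of the 6 other constructs. The Dnd and Vasa arrays lie below the rest for Uba1y, Eif2s3y, Uty and Ddx3y. For Zfy1, Zfy2 and the X-linked copies they lie among the rest, apart from Uba1, for which the Dnd array is highest by 0.06.

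The remaining 7 low genes had no shared role that the lists name. Upb1, the last enzyme of pyrimidine breakdown, was at -4.31 on the Dnd array, -1.19 on the parental array and from -2.79 (Vasa) through a median of -2.03 to -0.64 (Nanos3) on the other constructs. Vamp7, a vesicle fusion protein, was at -2.21 against -0.16 on the parental array and -0.70 to 0.28 on the others. That placed Upb1 8.73-fold and Vamp7 4.14-fold below parental, and both below every other array. Mgmt, which repairs alkylated guanine, was at -3.67 against -1.68 on the parental array and -2.64 to -1.13 on the others. Ecrg4, a precursor of a secreted peptide, was at -4.59 against -2.84 and -3.33 to -1.82. Rhbg, an ammonium transporter, was at -3.16 against -1.56 and -1.83 to -0.39, and Fetub, a secreted protease inhibitor, at -2.84, 2.53-fold below parental, and -1.33 to 0.81 on the others. Gask1b, a Golgi kinase-like protein, was at -3.85 against -2.54 and -2.32 to -1.21. The gap to the lowest construct ran from 2.04-fold for Mgmt to 2.90-fold for Gask1b among these 7 genes. Gask1b, Upb1, Rhbg, Ecrg4 and Mgmt were dim, with levels below 0 on all 8 arrays.

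**Figure D3:**
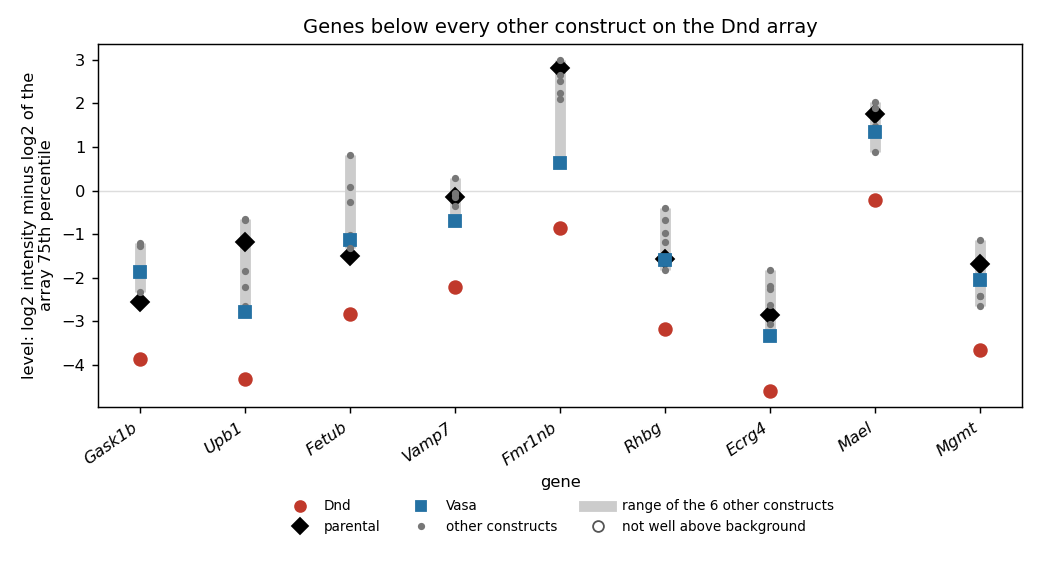
Levels on the 8 EBRTcH3 arrays of the 9 genes outside the Y chromosome that were at least 2-fold below parental and at least 2-fold below the range of the other constructs on the Dnd array (marks and bars as for the Y-linked genes). The Dnd array is the lowest of the 8 for every gene shown, and the Vasa array is the next lowest for Upb1, Vamp7, Fmr1nb and Ecrg4.

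Most of the 103 genes above the range had a spot that lay near another above-range spot on the array. On the Dnd array 159 spots were at least 2-fold above the range of the other constructs, and 133 of them (83.6%) had another such spot within 200 micrometres, against 5.37% of all spots. None of the 31 spots below the range had a below-range spot of another probe that near. Many of these 31 are repeat spots of a single probe. The below-range spots are fewer, and the share of all spots near one was not computed, so the sides cannot be compared directly. On the other 6 construct arrays the share of above-range spots near another ran from 19.2% (GFP) to 68.4% (Nanos2). Of the 103 genes, 90 had a neighbouring above-range spot, and 60 were well above background on the Dnd array alone. A further 26 probes read 21 of these genes: 4 were well above background on the Dnd array, which a call above the range requires, and 0 were outside the range. For the 11 low genes, 3 further probes read 3 genes, of which 0 were well above background on the Dnd array. None of the 3 was well above background on all 6 other constructs, which a call below the range requires. These 3 probes therefore could not be placed against the range.

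**Figure D4:**
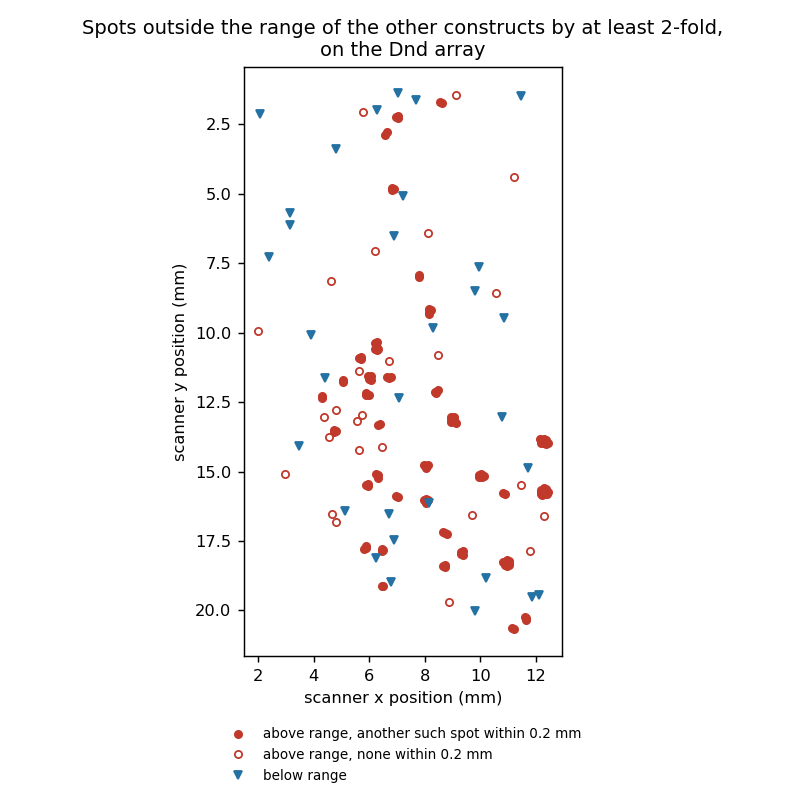
Positions on the Dnd array, in scanner millimetres, of the 159 spots above and the 31 below the range of the other constructs by at least 2-fold (filled red, another above-range spot within 0.2 mm; open red, none; blue triangles, below). The above-range spots form tight clumps, 133 of them having a neighbour. The below-range spots are fewer, and many of them are repeats of a single probe.

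Leaving aside probes that carry just an accession or a clone name, the largest gap above the range was that of Sybu, which encodes a kinesin adaptor, at 0.94 on the Dnd array. It was not well above background on the other 7 arrays, which puts it at least 21.5-fold above parental and at least 24.6-fold above the other 6 constructs. Its 2 further probes were not well above background on the Dnd array, and 5 above-range spots lay near it. The next genes by the same rule were Slco2b1, A930001A20Rik, Kcnj5, Slc16a7, Amer2, Macroh2a2, Apoc3, Gm38404, Hoxd11, Eef1a2 and Atp4b, with gaps of 10.3-fold (Atp4b) to at least 21.2-fold (Slco2b1). Most of these gaps are lower bounds, so their order is not settled. They have little in common by function: Kcnj5 is a heart potassium channel, Apoc3 a liver apolipoprotein and Atp4b a stomach proton pump subunit. Each had from 2 to 10 above-range spots near it. Without the genes whose spot lay near another above-range spot, 13 genes remained above both parental and the range, and the 11 below were unaffected.

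Among genes with no such neighbour and well above background on all 8 arrays, which were picked after their values were seen, Stx1a and Spsb4 were at least 2-fold above the range. Stx1a, a synaptic membrane fusion protein, was at -1.10 on the Dnd array, -2.99 on the parental array and from -3.47 (Prdm14) to -2.21 (GFP) on the others. Spsb4, a substrate adaptor of a ubiquitin ligase, was at 0.24, against -1.82 on the parental array and -1.86 (GFP) to -0.77 (Nanos3). Both were highest on the Dnd array, 3.71-fold and 4.16-fold above parental. Smaller gaps were seen for Ccdc28b, a modifier of cilium disease, at 1.11 against -0.69 on the parental array and at most 0.29 on the others. A second Ccdc28b probe was also highest on the Dnd array, at -1.73. Pclaf, a partner of the replication clamp, was at 4.97 against 3.27 and 2.10 to 4.37. Crmp1, a regulator of axon growth, was at 3.38 against 1.41 and 1.60 to 2.85.

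The comparison with a test set the Dnd array against its slide mates Nanos2 and Nanos3, with slide as a block over the 8 arrays (limma, 4 residual degrees of freedom). It called 2 of 19269 genes (0.0104%) at a Benjamini-Hochberg adjusted p under 0.05, both higher, and 429 had an unadjusted p under 0.05. They were an unnamed transcript read by probe A_52_P724652, and B230303O12Rik, at least 33.5-fold and at least 22.5-fold above the other constructs, each with an adjusted p of 0.0399 by limma. Both were well above background on the Dnd array alone and entered the fit through that array, and the fit used values below background as measured. They had 8 and 10 above-range spots near them. No lower gene was called. By limma, Fmr1nb stood -3.61 ± 0.87 (SE) from its slide mates with an adjusted p of 0.55, and Upb1 -3.65 ± 0.67 with 0.22. The smallest adjusted p among lower genes was 0.12, for Bche, which was not well above background on the Dnd array. In simulated data 20 of 100 genes changed by 4 on the log2 scale were called and 0 of 100 changed by 2. Whether the simulated noise matched the noise left after the slide block was not tested. The simulated counts therefore do not show how large a real fall the fit could have missed.

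Of 15 transcripts tied to Dnd1 in earlier work, all were measurable, 2 were at least 2-fold higher than parental (9.85% of all genes), 2 at least 2-fold lower (16.3%), and their median was -0.01 on the log2 scale against -0.16 for all genes. Cdkn1b, the p27 cell cycle brake reported as shielded by Dnd1, was at -0.71 against 0.90 on the parental array, 3.06-fold lower. A second Cdkn1b probe, well above background on all 8 arrays, was at 0.01 against 0.87, less than 2-fold lower. Bcl2, which blocks apoptosis, was at -0.58 against 1.15, 3.31-fold lower. Lats2, a Hippo pathway kinase, was 2.10-fold higher and Bclaf1 2.07-fold higher. All 4 were inside the range of the other constructs: Cdkn1b ran there from -1.89 (Nanos3) to 0.01 (Blimp-1) and Bcl2 from -1.91 (GFP) to 0.34 (Vasa).

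No reported target was at least 2-fold outside the range. Ezh2, the Polycomb methyltransferase, was at 2.83 on the Dnd array, 2.08 on the parental array and from 1.92 (Nanos3) to 2.64 (Vasa) on the others, the highest by 0.19 on the log2 scale. Trp53, which encodes p53, was at 3.48 and exceeded the next array, Prdm14 at 3.42, by 0.06. A second Trp53 probe, well above background on all 8 arrays, was inside the range, at 2.33 against 2.97 on the parental array. With 1 probe per gene, Ezh2 and Trp53 were 2 of 15 above the range by any amount, against 8.98% of all genes. Cdkn1a (1.33 against 2.04 on the parental array), Gja1 (1.79 against 1.80), Sycp3, Taf7l, Stra8, Dazl, Bax and Nanos1 were less than 2-fold from parental. A second Dazl probe, well above background on all 8 arrays, was at -3.49 against -2.95 on the parental array. By that probe the Dnd array lay below the other constructs by 0.32 on the log2 scale. Tdrd7 was not well above background on the parental array and at least 1.56-fold higher on the Dnd array. Limma gave no reported target an unadjusted p under 0.05 against the slide mates.

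The machinery that Dnd1 works with comes next, read against 9.85% of all genes at least 2-fold higher than parental and 16.3% lower. Of 16 measured CCR4-NOT subunits and adaptors, Cnot1, the scaffold, was 2.44-fold higher than parental (1.09 against -0.20), while the catalytic subunit Cnot8 (2.53 against 3.98) and the adaptor Btg1 (3.74 against 5.28) were 2.72-fold and 2.91-fold lower. Of 14 members of the microRNA machinery, Drosha, Dicer1, Ago2, Tnrc6b and Tnrc6c were 2.11-fold to 3.66-fold higher and Ago4 was 2.89-fold lower. None of the measured members of these 2 lists lay outside the range by any amount. Among 18 mRNA decay genes, 4 were at least 2-fold higher and 0 lower than parental, and none was at least 2-fold outside the range. By smaller amounts Edc3 was above it by 0.02 on the log2 scale, and Smg6 and Pan2 were below it, Smg6 by 0.30.

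Genes that define ESCs were within 2-fold of parental. On the Dnd array Pou5f1 was at 5.74 (6.37 on the parental array), Nanog at 4.92 (5.24), Sox2 at 3.96 (3.66), Zfp42 at 6.76 (7.18) and Esrrb at 4.81 (5.33). None of the 7 measured ESC markers was at least 2-fold from parental, against 26.2% of all genes. Utf1 was the only one outside the range, above it by 0.31 on the log2 scale. The Nanos3 array stood apart here, with Nanog at 2.29 and Esrrb at 2.35, and it is 1 of the 2 slide mates in the limma comparison. Of 25 naive pluripotency genes, Sall4, Klf4 and Nr5a2 were at least 2-fold higher than parental (9.85% of all genes). Tbx3, Nr0b1 and Fbxo15 were at least 2-fold lower (16.3% of all genes). All of these lay within the range.

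Of 14 PGC markers, 3 were at least 2-fold higher than parental (9.85% of all genes), Nanos3 (2.79-fold), Alpl, the phosphatase used to stain PGCs (2.61-fold), and Dnd1 (2.23-fold), and 4 at least 2-fold lower (16.3%). The lower ones were Prdm1, the gene of Blimp-1 (-1.11 against 0.48), Dppa3, also called Stella (1.76 against 4.23), Sox17 (-1.45 against 0.75) and Ifitm3 (3.44 against 5.15). Ifitm3, a membrane protein of early PGCs, was the only one outside the range, below the next array, Nanos2 at 3.79, by 0.34 on the log2 scale. For Dppa3 the Vasa array was lower still, at 0.63.

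The list with the lowest median against parental was that of trophectoderm markers, at -1.22 against -0.16 for all genes. On the other constructs, which share the parental array, its median ran from -0.58 (GFP) to 2.30 (Nanos3). Of 9 measured members, 5 were at least 2-fold lower (16.3% of all genes): Krt8 (1.63 against 2.96), Krt18 (3.05 against 4.81), Krt7 (-1.95 against -0.26), Tfap2a (-2.64 against -0.90) and Ascl2 (-3.08 against -1.86). Esx1 was at least 3.61-fold higher, and 9.85% of all genes were at least 2-fold higher. Of the 9, Ascl2 was the only 1 outside the range of the other constructs, below it by 0.03 on the log2 scale. The keratins are also expressed in other epithelia, and they were lower on the Vasa array, with Krt8 at 0.99, Krt18 at 1.94 and Krt7 at -3.38. Cdx2, which sets trophectoderm identity, was at -4.69 on the Dnd array and not well above background on the parental array, and Gata3, Hand1 and Elf5 were not well above background on either.

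Targets of Atf4 and of hypoxia were at least 2-fold lower than parental for 10 of 16 members (16.3% of all genes) and at least 2-fold higher for 1 (9.85% of all genes), with a median of -1.20. Chac1, which degrades glutathione, was at 2.27 against 6.10 (14.3-fold lower), Trib3 at 2.93 against 5.82 (7.40-fold), Atf4 itself at 3.28 against 5.38 (4.27-fold) and Asns, asparagine synthetase, 4.02-fold lower at 6.00. The other 6 constructs had medians of -1.36 to -0.75 against the same parental array. Atf3, a stress-induced partner of Atf4, was the only member below the range, at -3.73 against 0.16 on the parental array and -3.44 on the Vasa array. The parental array was the highest of the 8 for Chac1, Trib3, Atf4, Asns, Ddit3 and Atf3.

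Of 22 sterol and fatty acid genes, 8 were at least 2-fold higher than parental and 0 lower, against 9.85% and 16.3% of all genes, with a median of 0.55. Against the slide mates, the median of this list was 0.01 and that of all genes 0.07. Acaca and Fasn, the enzymes that start and build fatty acids, were 5.32-fold and 4.87-fold higher than parental, and Hmgcs1 of the sterol branch 2.66-fold. Of 12 DNA methylation genes, 4 were at least 2-fold higher and 0 lower: the de novo methyltransferases Dnmt3a (2.28 against 0.27) and Dnmt3b (4.34 against 2.34), Dnmt1 (0.12 against -1.15) and Tet1 (1.02 against -0.46). On the other constructs the medians of these lists against parental ran from -0.10 to 0.84 and from 0.22 to 0.91, and so included the Dnd array. Dnmt3a was above the next array, Nanos2, by 0.04 on the log2 scale.

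Genes of the 2-cell-like state, a rare state of ESC cultures, were measurable for 6 list members. Of these 0 were at least 2-fold from parental, against 26.2% of all genes. Below the range of the other constructs by any amount were 3 (4.93% of all genes), namely Zscan4c, Tcstv1 and Usp17la. Gm4340, Gm8300 and Eif1a were inside it. Zscan4c was at -3.12 on the Dnd array, not well above background on the parental array, and from -2.39 (Vasa) to 0.67 (Prdm14) on the others. Tcstv1 was at -3.07 against -2.26 on the parental array and -2.65 (Vasa) to 1.71 (Prdm14). These genes belong to families of near-identical copies that the probes may not separate.

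Of 21 imprinted genes, 4 of the 19 measured were below the range by any amount (4.93% of all genes) and 1, Peg10, was above it (8.98%). Among the low ones was the growth factor gene Igf2, at -2.46 against -0.55 on the parental array and -2.05 (Nanos2) to 3.70 (Blimp-1). H19, its neighbour, was at -3.27 against -1.24, 4.08-fold lower, and inside the range. Of 10 BMP targets, Id1 was 2.62-fold higher than parental (2.57 against 1.18) and Id2, Id4, Msx1 and Hey1 at least 2-fold lower. Msx1 and Id2 were below the range by 0.40 and 0.04 on the log2 scale. Glycolysis genes were at least 2-fold higher than parental for 3 of 17 and lower for 0. The counts of both lists are read against 9.85% of all genes at least 2-fold higher and 16.3% lower.

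For signalling, growth and stress lists the counts are read against 9.85% of all genes higher and 16.3% lower. Higher and lower by at least 2-fold were 3 and 0 of 11 Wnt targets, 3 and 1 of 14 ERK-responsive genes, 1 and 1 of 14 TGF-beta and activin targets, and 4 and 1 of 16 p53 targets. The same counts were 1 and 1 of 20 CDK inhibitors and cyclins, 0 and 2 of 20 apoptosis regulators, 0 and 0 of 7 interferon-stimulated genes, and 3 and 3 of 15 genes of the heat shock and immediate early responses. For 9 primed epiblast genes they were 2 and 3 and for 13 epithelial genes 2 and 5. For 4 cytidine deaminases, a family with a known Dnd1 partner, they were 1 and 0. Over all 31 lists, Mael was the only member at least 2-fold outside the range of the other constructs.

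**Figure D5:**
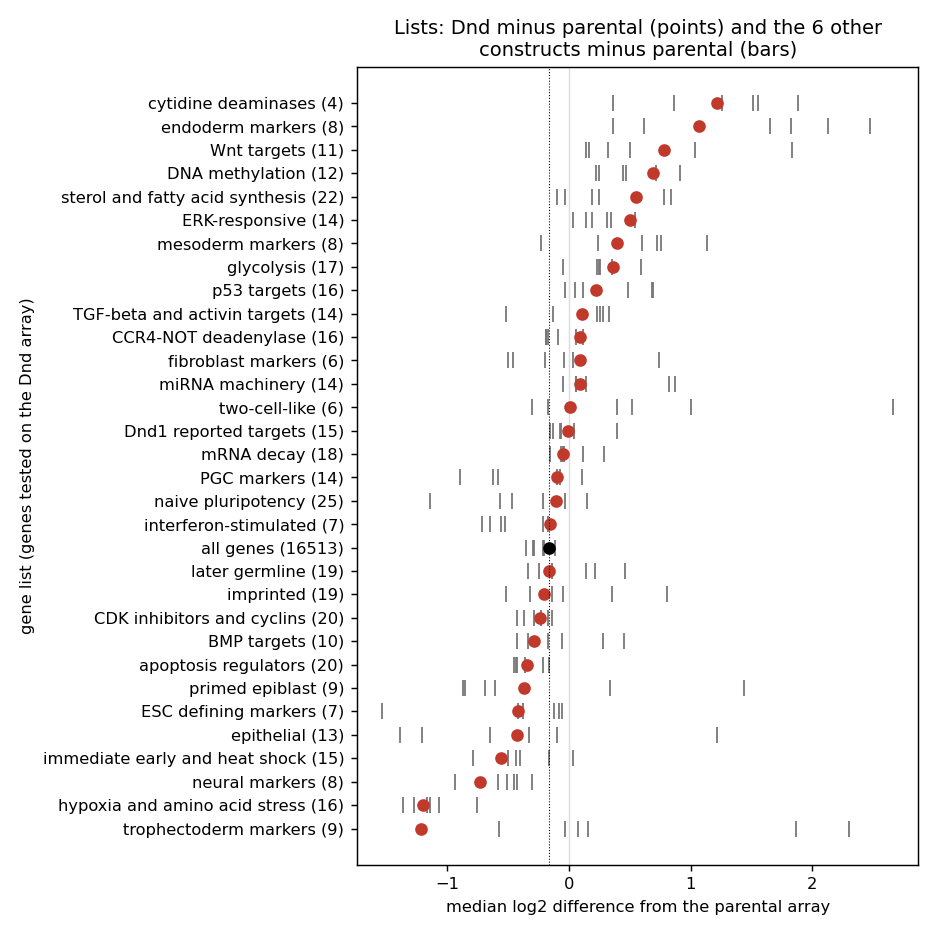
Median log2 difference from the parental array for the 31 gene lists and all genes (with the number of genes tested), as red points for Dnd (black for all genes, dotted line) and grey bars for the 6 other constructs, which share the parental control, all as measured. The Dnd point for trophectoderm markers, at -1.22, is below all 6 bars, and the other Dnd points lie among the bars except that of interferon-stimulated genes, at -0.16, which is just above them.

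Markers of other cell types were read beside these lists, and their part in the results was not tested. Over all genes, 9.85% were at least 2-fold higher than parental and 16.3% lower. Of 12 fibroblast markers, which feeder cells would bring, 6 were measurable, 1 was at least 2-fold higher and 2 lower than parental, and none was outside the range. The higher one was Thy1, and the lower ones were Col1a2 and Prrx1. Endoderm markers were at least 2-fold higher for 2 of 8, the basement membrane genes Lama1 and Lamb1, and lower for 1, Sox17. Mesoderm markers were higher for 1 of 8, Bmp4, and lower for 0. Neural markers were higher for 0 of 8 and lower for 3: Sox1, Pax6 and Nes.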

How the data were processed

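Per the file headers, each array was scanned in 1 colour and processed with Agilent Feature Extraction 10.7.3.1 on a design annotated on mm9. The deposited values are spot intensities, which the authors background-subtracted, with no scaling from array to array. The series' own value table holds the same intensities, rounded, and served as an alternative.

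Control spots and outlier spots were left out and repeat spots averaged. A level is the log2 of intensity over the 75th percentile of its array. Of 41174 probes, RefSeq accessions named 27015, symbols 5016, synonyms 798 and a description 1, and 8344 kept the file's name. This gave 28103 genes, 8715 with several probes, each read by the probe whose mean over the 22 arrays was highest.

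Dnd minus parental and the gap to the 6 other constructs have no test. Limma 3.58.1 in R 4.3.3 (lmFit and eBayes, two-sided, Benjamini-Hochberg) fitted the 8 arrays with slide as a fixed block. The Dnd array is taken to vary as the other arrays do, nothing in the labels gives repeated cultures, and the number of arrays limits the precision. The fit was tested on simulated data. Alternatives changed the background correction, normalization, filter, probe choice, control, threshold and arrays.

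Named were Dnd1, up to 12 genes farthest on each side of the range, the limma calls or the 6 smallest p in a direction without calls, up to 3 members per list with the largest gap, the reported targets and 19 germ cell and pluripotency genes. Y-linked genes, their X-linked copies, above-range genes with no near spot, Syce1 and list members named for being at least 2-fold from parental were picked after their values were seen. The members, the 31 lists and the tests were chosen with earlier results of these data known.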

Additional observations from a re-analysis of the deposited data

How the results depend on the processing

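The counts for Dnd minus parental (4321), outside the range (127) and both (114) depended on how dim probes were treated. Normexp background correction gave 1973, 51 and 47, with 11 of the 11 low genes still below the range but 2 of them by at least 2-fold. No filter on dim probes gave 13226, 322 and 278, and limiting to genes well above background on all 8 arrays gave 22 outside the range (10 above, 12 below) and 19 for both. Against the GFP array 2725 genes differed at least 2-fold, against the mean of Nanos2 and Nanos3 1257, and 793 differed from parental at least 4-fold. Any gap above 0 gave 2251 outside the range and 547 for both, and the range of Nanos2 and Nanos3 alone gave 414. Leaving out 1 construct at a time gave 131 to 180, and the number below the range was 17 with all 6, 53 without Vasa and 65 without Nanos3. Without Vasa, 129 genes met both criteria, 23 of them below. Leaving out genes whose spot lay near another above-range spot, an alternative chosen after seeing the data, gave 31 and 24. With several probes averaged, Ddx3y no longer counted as below the range. The Dnd array was there raised to its floor of -4.95, while the Vasa average was kept as measured. As measured, both Ddx3y probes were lowest on the Dnd array, at -7.03 and -7.11.

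Limma called 2, but 98 under quantile normalization (97 higher), 73 without the slide block, 72 with slide as a random block and 4 with no filter. It called 0 under normexp (161 at an unadjusted p under 0.05), 0 among genes well above background on all 8 arrays (87), 0 without spots near another above-range spot, and 0 to 1 without 1 array. The cause of these shifts was not tested. No named difference reversed under another scaling. No paired analysis was possible because each group had 1 array and the labels give no replicate numbers.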
